A study of Anas platyrhynchos with 2 samples.

Results

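The miR-193 and miR-365 family was examined in small RNA from the duodenum of ducks. Its members were all rows of the deposited table of mature miRNAs named miR-193a, miR-193b, miR-365 or miR-365b, whichever arm or copy they stood for. This gave 7 of the 288 listed rows, namely miR-193a-5p, miR-193a-3p, miR-193b-3p, miR-365-1-5p, miR-365-2-5p, miR-365-3p and miR-365b-5p. The table writes them with the chicken prefix, as in gga-miR-193a-5p (32 counts in CC and 85 in CT), gga-miR-365-3p (109 and 275) and gga-miR-365b-5p (14 and 35), where CC and CT are its libraries. The family was chosen by its names together with these counts, which were already known to differ, so the ratios given here describe the members and carry no test.

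The ducks were female Jingjiang ducks, an egg-laying domestic breed, at 1 day of age. All were put into boxes for carrying newborn poultry. The transported group then travelled for 8 h by road, at 40 to 70 km per h, and its duodenum is labelled as having damaged mucosa. The control group stayed where it was and its duodenum is labelled as normal. The study used 20 ducks, and each group is represented by 1 library. The number of ducks pooled in a library is not stated. By the last letter of its name, CC was taken for the control and CT for transport. No label spells this out, and all directions would turn if the reading were wrong, so values are given for CC and CT. Since neither group has a second library, differences between CC and CT have no replicate check, and all intervals are 95% intervals that cover counting error only. CC held 5772509 counts and CT 5272666. Levels are given in CPM, counts per 1000000 counts of the library.

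A miRNA is cut from a hairpin transcript that can yield a product from its 5p arm and another from its 3p arm, and the seed, bases 2 to 8, guides it to messenger RNAs. In mammals miR-193b and a first copy of miR-365 come from a common transcript, and miR-193a lies near a second copy of miR-365 on another chromosome. The cluster of miR-193b and miR-365 is known from mouse brown fat, where it has been reported to favour fat over muscle differentiation. In human cells miR-193b represses cyclin D1 and urokinase, and miR-365 represses interleukin 6. Which copies neighbour each other in the duck was not analysed here.

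The mature sequences, as the table gives them under chicken names, show which rows can act through a common seed, printed in capitals.
miR-193a-5p: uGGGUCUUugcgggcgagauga
miR-193a-3p: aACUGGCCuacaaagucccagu
miR-193b-3p: aACUGGCCcacaaagucccgcuuu
miR-365-1-5p: gAGGGACUuuugggggcagaugu
miR-365-2-5p: gAGGGACUuucaggggcagcugu
miR-365-3p: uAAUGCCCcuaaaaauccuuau
miR-365b-5p: aGGAUUUUuaggggcauuauga

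The 3p arms of miR-193a and miR-193b have the same seed. Counted from the 5′ end over the 22 bases compared, they differ by U9C, A20G and G21C, with the base of miR-193a-3p first. The 5p arms of the miR-365 copies also have a common seed and differ by U11C, G12A and A20C, with the base of miR-365-1-5p first. Of the 288 rows, no other carries any of the seeds of the family. The seeds of miR-193a-5p, miR-365-3p and miR-365b-5p each occur in 1 row. By base composition miR-365-3p, with 31.8% G and C, and miR-365b-5p, with 36.4%, stand apart from the others, at 50 to 60.9%. None of the 42 predicted duck miRNAs shares a run of 15 bases or more with a member, and none of their hairpins does so on either strand.

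The hairpins show where these products lie, with the listed mature sequences in capitals, and why some rows cannot be assigned to a single copy.
mir-193a: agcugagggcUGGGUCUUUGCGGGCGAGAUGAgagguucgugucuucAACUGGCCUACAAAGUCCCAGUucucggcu
mir-193b: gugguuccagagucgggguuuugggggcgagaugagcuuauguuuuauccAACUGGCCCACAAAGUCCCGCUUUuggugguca
mir-365-1: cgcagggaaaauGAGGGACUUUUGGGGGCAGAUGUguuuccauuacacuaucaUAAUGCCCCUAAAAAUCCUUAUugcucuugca
mir-365-2: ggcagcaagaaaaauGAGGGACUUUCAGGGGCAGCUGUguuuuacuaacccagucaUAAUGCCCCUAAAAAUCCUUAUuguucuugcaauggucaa
mir-365b: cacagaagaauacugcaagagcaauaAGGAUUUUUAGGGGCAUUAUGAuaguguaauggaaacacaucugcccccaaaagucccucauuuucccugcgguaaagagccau

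The sequence of miR-365-3p is contained in both mir-365-1 and mir-365-2, although the table lists it under mir-365-2 alone. Its counts therefore cannot be divided between the copies, and the 5p arms are the rows that tell them apart. The whole 85-base hairpin of mir-365-1 is present in the reverse complement of the 110-base hairpin of mir-365b. With mir-365-2, the reverse complement of mir-365b shares a run of 27 bases, which covers the site of miR-365b-5p. Folded as single molecules with RNAfold, the hairpins had minimum free energies of -45.6 kcal per mol for mir-193a, -30.1 for mir-193b, -37.0 for mir-365-1, -36.1 for mir-365-2 and -32.7 for mir-365b.

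All 7 rows together held 186 counts in CC and 448 in CT, or 32.2 CPM and 85.0 CPM, so the family was a minor part of the duodenal profile in both libraries. The strongest row was miR-365-3p, the main arm of miR-365, at rank 118 of the 288 rows in CC and rank 100 in CT. It alone took 58.6% of the family's counts in CC (exact binomial interval 51.2 to 65.8%) and 61.4% in CT (56.7 to 65.9%). The order of levels in CC was miR-365-3p, miR-193a-5p, miR-193b-3p, miR-365b-5p, miR-365-2-5p, miR-365-1-5p and miR-193a-3p. Only the first step of that order, from miR-365-3p to miR-193a-5p, separated neighbours whose Poisson intervals did not overlap. In CT miR-365b-5p stood above miR-193b-3p, with overlapping intervals, and miR-193a-3p above miR-365-1-5p, while the other places were as in CC.

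**Figure D1:**
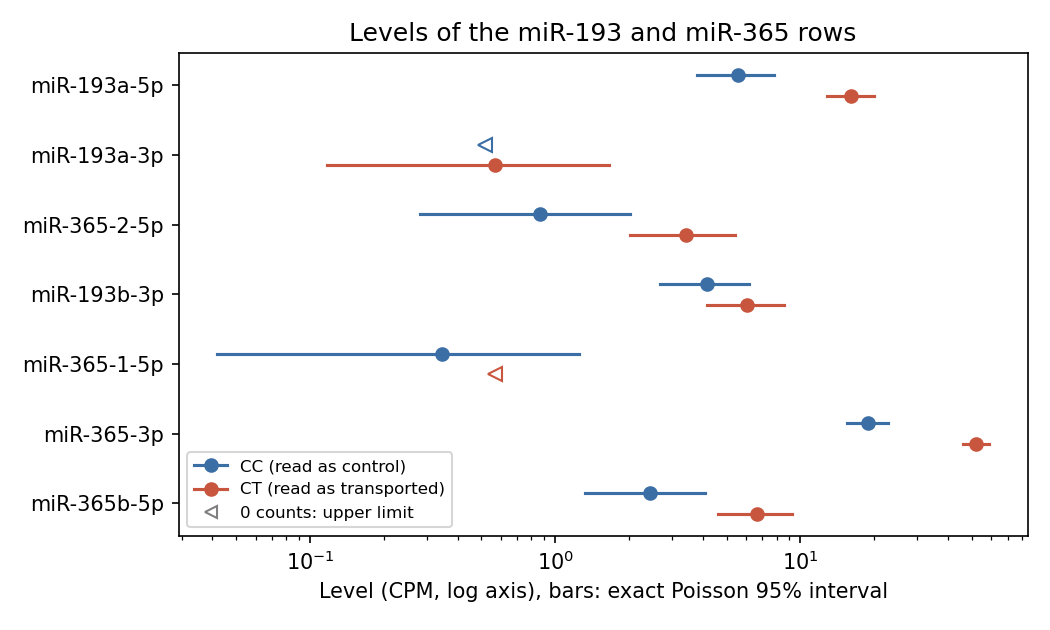
Level of each row in CPM on a log axis, in CC (blue) and CT (red), with exact Poisson 95% intervals as bars. Open triangles mark the limit set for 0 counts. The intervals of CC and CT lie apart for miR-193a-5p, at 5.54 and 16.1 CPM, for miR-365-3p, at 18.9 and 52.2 CPM, and for miR-365b-5p, nearly touch for miR-365-2-5p, and overlap for miR-193b-3p.

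Both miR-193a-5p and the sparsely counted miR-365-2-5p were higher in CT. miR-193a-5p, the main arm of miR-193a here, had 32 counts in CC and 85 in CT. Its level was 5.54 CPM in CC (exact Poisson interval 3.79 to 7.83) and 16.1 CPM in CT (12.9 to 19.9), a ratio of 2.91 (exact conditional interval 1.92 to 4.51). The intervals of the levels did not overlap. The other arm, miR-193a-3p, which carries the seed held in common with miR-193b, had 0 counts in CC and 3 in CT. For a count of 0 the upper limit was set at 3 counts, or 0.520 CPM in CC, and no ratio was taken for counts this low. The 5p arm thus held 32 of 32 counts listed for mir-193a in CC (exact interval 89.1 to 100%). In CT it held 85 of 88 (96.6%, 90.4 to 99.3%), and these intervals overlapped. The 3p arms of miR-193a and miR-193b differ at 3 of the 22 bases compared, and how similar reads were assigned is not stated.

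miR-365-2-5p, the 5p product of mir-365-2, had 5 counts in CC and 18 in CT. Its levels were 0.866 CPM (0.281 to 2.02) and 3.41 CPM (2.02 to 5.40), a ratio of 3.94 with a wide interval from 1.41 to 13.6. The corresponding product of mir-365-1, miR-365-1-5p, had 2 counts in CC and 0 in CT, where the limit set for 0 is 0.569 CPM. Among the 5p products of both copies, miR-365-2-5p made up 5 of 7 counts in CC and 18 of 18 in CT, and the exact intervals of these shares, 29.0 to 96.3% and 81.5 to 100%, overlapped. The 5p counts in CT were thus all of mir-365-2. Whether this hairpin lies near miR-193a was not analysed here.

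miR-193b-3p was closer to equal in the libraries. It had 24 counts in CC and 32 in CT, at 4.16 CPM (2.66 to 6.19) and 6.07 CPM (4.15 to 8.57). The ratio of 1.46 had an interval from 0.833 to 2.59, which contains 1 as well as 2, so a difference was not detectable at this depth and a 2-fold one is not excluded by counting error. Set against this row, miR-193a-5p was 1.33 times as abundant in CC (0.761 to 2.37) and 2.66 times as abundant in CT (1.75 to 4.12). This ratio within a library is free of the library totals. Its value in CT was 1.99 times that in CC, with an interval from 0.964 to 4.08, so at this depth a ratio that was the same in both libraries lies within counting error. No row for the 5p arm of miR-193b was analysed here.

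miR-365-3p, common to both miR-365 copies, had 109 counts in CC and 275 in CT. Its level was 18.9 CPM in CC (15.5 to 22.8) and 52.2 CPM in CT (46.2 to 58.7), a ratio of 2.76 (2.20 to 3.48). The intervals of the levels were far apart, and this was the most precise ratio of the family. The 5p arms of both copies together took 7 of the 116 counts of these hairpins in CC, or 6.03% (2.46 to 12.04%), and 18 of 293 in CT, or 6.14% (3.68 to 9.54%). The shares of the arms were thus close, while the level of the main arm was higher in CT.

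The main arms of miR-365 and miR-193a kept nearly the same proportion to each other. In CC there were 3.41 counts of miR-365-3p for each count of miR-193a-5p (2.28 to 5.22), and in CT 3.24 (2.53 to 4.18). The latter ratio was 0.95 times the former (0.577 to 1.54). Both rows were chosen with their counts known, so this likeness is a description and carries no test. Against miR-193b-3p the proportion differed more, with 4.54 counts of miR-365-3p per count in CC (2.90 to 7.39) and 8.59 in CT (5.95 to 12.8). That change, 1.89-fold with an interval from 1.01 to 3.48, came close to the limit of counting error, and miR-193b-3p rests on few counts. Since miR-365-3p was chosen with its ratio known, this change is also a description and carries no test.

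The row miR-365b-5p needs care because it lies antisense to miR-365-3p. Here miR-365b-5p is written as its reverse complement, and the 19 bases found in both are in capitals.
miR-365-3p: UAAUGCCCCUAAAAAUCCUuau
miR-365b-5p, reverse complement: ucaUAAUGCCCCUAAAAAUCCU

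miR-365b-5p had 14 counts in CC and 35 in CT, at 2.43 CPM (1.33 to 4.07) and 6.64 CPM (4.62 to 9.23). Its ratio of 2.74 (1.44 to 5.51) lay beside the 2.76 of its antisense partner. In CC the row held 11.4% of the counts of the pair (6.36 to 18.4%), and in CT 11.3% (7.99 to 15.4%). Whether reads were counted by strand is not stated in the labels or the table. It is therefore not known whether the 2 rows hold separate reads, and miR-365b-5p is not taken as a separate observation of a difference. With both rows added together the log2 ratio was 1.46 (1.16 to 1.78), against 1.47 (1.14 to 1.80) for miR-365-3p by itself. If reads were counted in both rows, the sum holds them more than once and its interval is too narrow.

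The table holds 3 other antisense pairs of at least 15 bases with at least 50 counts in all, and their counts were divided in other proportions. miR-219a and miR-219b, which pair over 18 bases, had the same counts, 50 in CC and 59 in CT for each. miR-458a-3p and miR-458b-5p, which pair over 20 bases, differed by 1 count per library, with 421 and 420 in CC and 635 and 634 in CT. For these pairs the rows repeat each other. miR-365b-5p had 0.128 counts per count of miR-365-3p in CC and 0.127 in CT. This lower proportion does not show that its reads are separate from those of miR-365-3p, which was not tested. The pair of miR-124a-3p and miR-124c-5p, over 19 bases, had counts of 12 and 10 in the CC library and of 19 and 11 in the CT library.

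**Figure D2:**
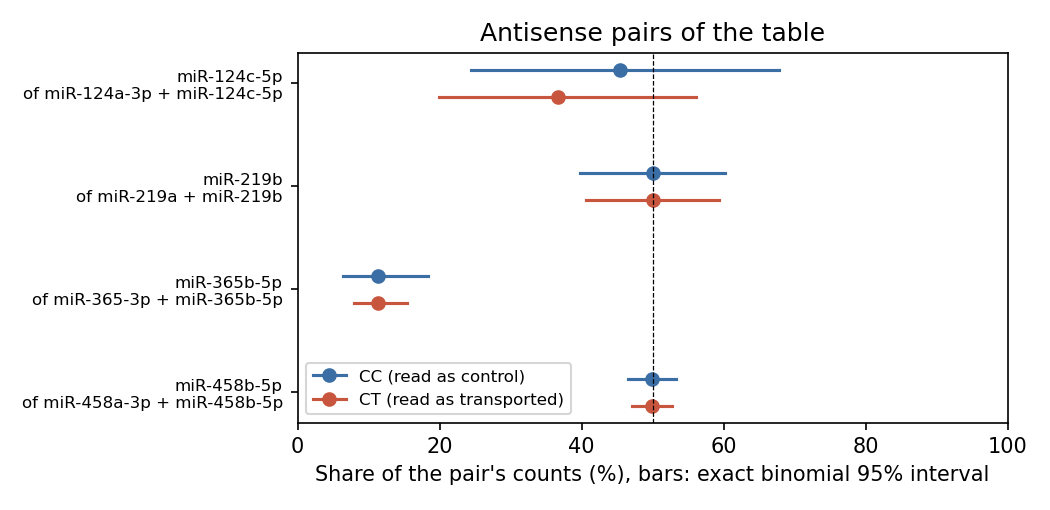
Share of the second row in the counts of each antisense pair, in percent, for CC (blue) and CT (red), with exact binomial 95% intervals. Where the rows of a pair repeat each other, the share is set by the repeat, and its interval does not measure counting error. The miR-365b-5p row sits at 11.4 and 11.3%, while miR-219b and miR-458b-5p sit at or near 50%, since both rows of those pairs hold nearly the same counts.

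Over the whole table, 2-fold differences were uncommon among rows of higher count. A total of 149 rows reached 50 counts over the libraries. Of these 9, or 6.04%, were 2-fold or more higher in CT, and 2, or 1.34%, were 2-fold or more lower. The family had 3 rows in that range, miR-365-3p, miR-193a-5p and miR-193b-3p, and the first 2 of them were past 2-fold. Since the family was chosen with these ratios known, nothing is read from that share. Among the 54 rows with 10 to 49 counts, 14.8% were at least 2-fold higher in CT and 9.26% at least 2-fold lower, so wide ratios were more frequent there. miR-365b-5p, at 49 counts just under the minimum, and miR-365-2-5p, at 23, were the family's rows in that range, and both were past 2-fold. With a pseudocount of 5 CPM neither was, at log2 ratios of 0.65 and 0.52. The median log2 ratio of the 149 rows was 0.02, with quartiles at -0.25 and 0.36, whereas the log2 ratios were 1.54 for miR-193a-5p, 1.47 for miR-365-3p and 0.55 for miR-193b-3p.

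**Figure D3:**
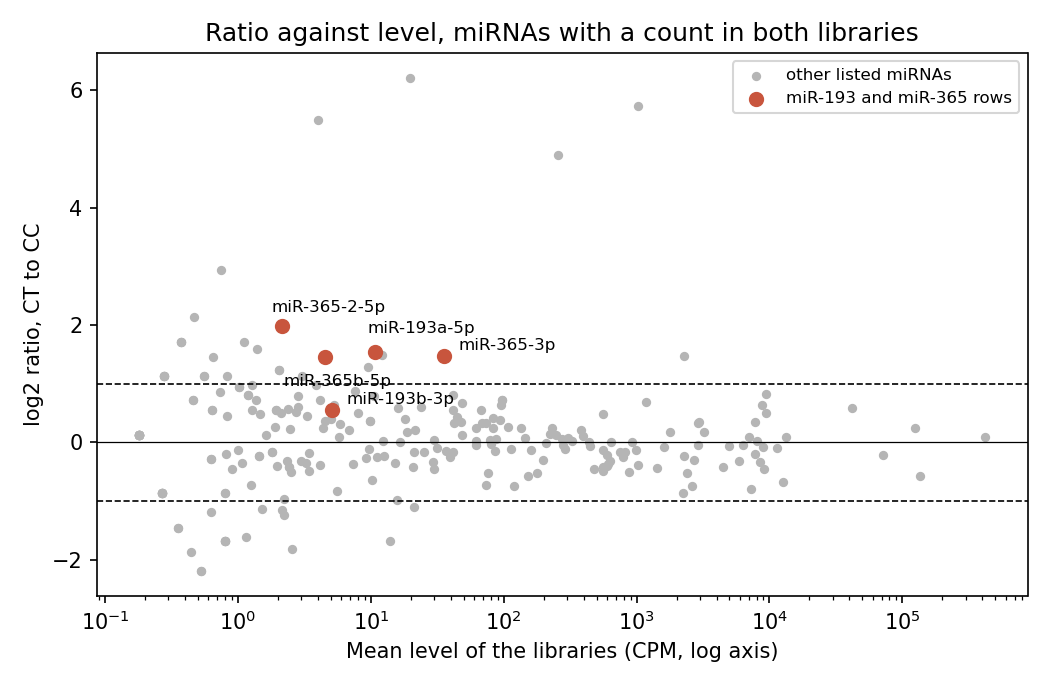
The log2 ratio of CT to CC against the mean level in CPM (log axis) for every miRNA with a count in both libraries, with the family in red and dashed lines at a 2-fold difference. Of all the plotted rows, 29 of 253 (11.5%) were at least 2-fold higher in CT. Of the family, 4 rows lie above the upper line at log2 ratios of 1.45 to 1.98, and miR-193b-3p lies between the lines at 0.55. The 4 include miR-365-2-5p, at 23 counts, and miR-365b-5p, which is not taken as a separate observation. The family was chosen with ratios known, so nothing is read from its share.

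Rows of nearly the same abundance show the spread of ratios at each level. The 6 rows nearest to miR-365-3p in mean CPM, at 29.9 to 41.2 CPM, had ratios from 0.730 for miR-203a, a miRNA of stratified epithelium, to 1.46 for miR-187-3p. None reached 2-fold. Of the 6 nearest to miR-193a-5p, at 9.93 to 12.2 CPM, 2 were past 2-fold, namely miR-135a-5p (2.81, 1.90 to 4.23) and miR-216c, whose 116 counts were all from CT. The other 4 had ratios from 0.639 for miR-21-3p to 1.73 for miR-18b-5p. Around miR-193b-3p the ratios ran from 0.561 for miR-490-5p to 2.74 for miR-365b-5p, which is itself a member of the family. Outside the family the highest was 1.55 for miR-3535, so miR-193b-3p, at 1.46, lay inside the range but near its upper end.

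**Figure D4:**
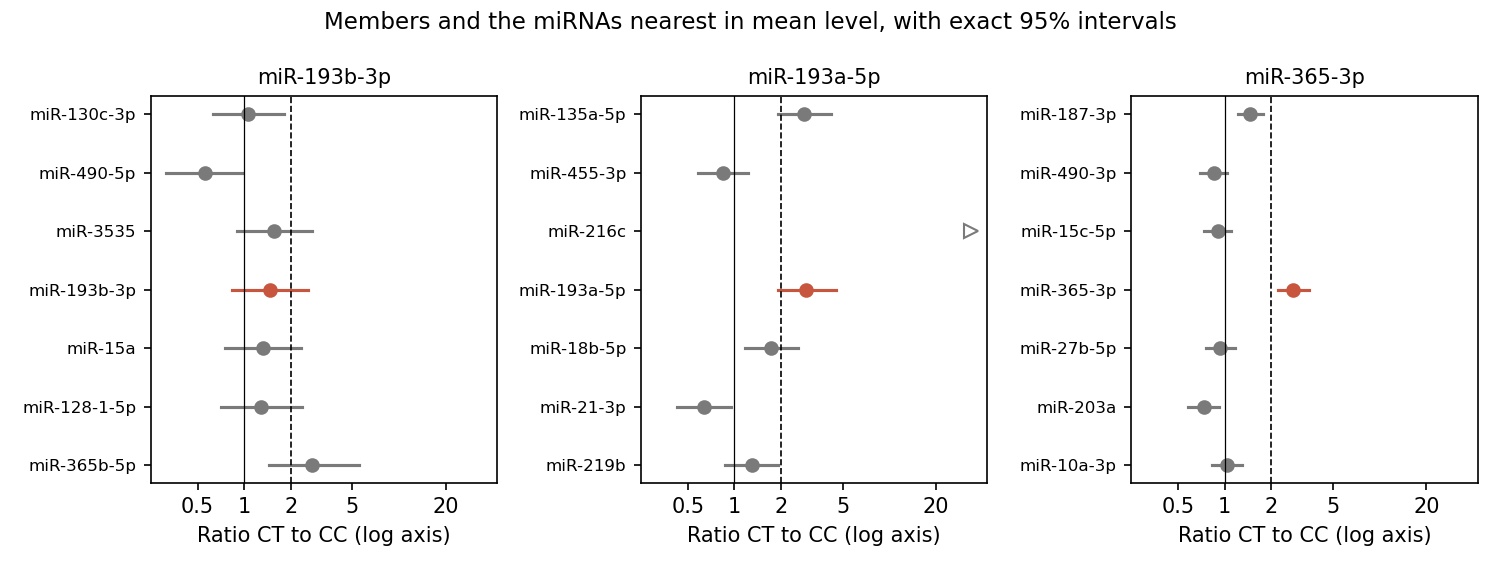
Ratio of CT to CC on a log axis for 3 members (red) and the 6 rows nearest to each in mean level (grey), with exact 95% intervals, a line at 1 and a dashed line at 2. The triangle marks the lower limit for miR-216c, which had 0 counts in CC. In the plot around miR-365-3p that row alone exceeds 2, and miR-193b-3p lies among its neighbours. miR-365-3p and miR-193a-5p were chosen with their ratios known, so their places in the plots carry no test. Of the grey rows around miR-193b-3p, miR-365b-5p is itself a member of the family.

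The miRNAs whose ratios were nearest to those of the family came from other hairpins as well as from the family. Over the 2 libraries and among rows with at least 50 counts, the 3 nearest to miR-365-3p were miR-375 (2.79, 2.71 to 2.87), miR-135a-5p and miR-193a-5p. The gaps were 0.01, 0.03 and 0.07 on the log2 scale. The same rows, with miR-365-3p in place of miR-193a-5p, were nearest to miR-193a-5p. miR-375, known from islets of the pancreas and from gut endocrine cells, stood at 1206 CPM in CC, against 3365 CPM in CT. For miR-193b-3p the nearest were miR-187-3p, miR-34a-5p and miR-1451-5p, at ratios of 1.46 to 1.49. Over 2 libraries likeness is a match of a single ratio.

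Levels of miRNAs of other cell types also differed between the libraries. All 4 of 4 pancreatic acinar miRNAs of the miR-216 and miR-217 locus were past 2-fold higher in CT, and their summed level was 54.7 CPM in CC and 2555 CPM in CT, with miR-216c at 0 in CC. Both endocrine miRNAs, miR-375 and miR-7, were higher in CT, with a summed level of 9059 CPM in CC and 14430 CPM in CT. All 3 listed miRNAs of intestinal epithelium were higher in CT, none past 2-fold (median log2 ratio 0.59). That median is the value of miR-194, whereas miR-215-5p, the most abundant of the 3, had a log2 ratio of only 0.10. In CC miR-215-5p made up 405612 of their summed 438847 CPM, and in CT the sum was 485330 CPM. For endothelium miR-126-3p was lower (log2 ratio -0.79), while the other arm, miR-126-5p, stood at -0.13 (964 counts in CC and 805 in CT). miR-122-5p of hepatocytes had a log2 ratio of -0.01, and both red blood cell miRNAs were under 50 counts, with a summed level of 3.29 CPM in CC and 1.90 CPM in CT. Of the leukocyte miRNAs with at least 50 counts, 1 was higher and 3 were lower in CT. The part of these differences in the ratios of the miR-193 and miR-365 rows was not tested. In tissue of mixed cell types, more cells of a type and more of a miRNA per cell cannot be told apart.

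Since the cluster of miR-193b and miR-365 is best known from fat, other miRNAs known from mouse or human brown and beige fat were listed as well. Of 17 names besides the family, 10 were found by an exact match of the name, and 8 had at least 50 counts. Rows whose names differ in suffix from the listed ones were thus left out. Among them were miR-203a, lower in CT (201 counts in CC and 134 in CT, log2 ratio -0.45), and miR-196-5p (1 and 4 counts). In CT 4 of the 8 matched rows were higher and 4 lower, none past 2-fold. Their median log2 ratio was 0.05, against 0.02 over the 149 rows, and these values depend on the matching of names. The extremes were miR-455-5p at -0.73 and miR-34a-5p, a p53-responsive miRNA, at 0.55. The other arm of miR-455, miR-455-3p, stood at -0.24 (70 counts in CC and 54 in CT). The list comes from mouse and human, and whether its miRNAs mark fat in the duck was not tested. Muscle miRNAs, listed for smooth and striated muscle together, were divided. With 6 of 7 at 50 counts or more, 2 were higher and 4 lower, with a median of -0.14 and a summed level of 8930 CPM in CC and 6695 CPM in CT. Among them, miR-206 had 1 count in CC and 0 in CT. miR-133a-3p and miR-133b stand in both lists.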

How the data were processed

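Per the labels' protocols, Trizol RNA was used, fragments of 20 to 30 nt were cut from a 15% TBE-urea gel loaded with 10 µg, and libraries followed standard Illumina protocols. Per the file headers, the authors deposited read counts and TPM per mature miRNA, and a folding energy score for predicted hairpins. The deposited TPM equal counts scaled to a library sum of 1000000, within 4.31e-05, without a length term, and are here called CPM. The aligner, miRNA release and build, and whether reads were matched to chicken or duck sequences, are not stated in the labels or headers.

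CPM were computed from the table totals. Ratios have exact conditional (Clopper-Pearson) intervals, shares exact binomial and levels exact Poisson intervals. For levels at 0 counts a floor of 3 counts served as the upper limit in place of the exact interval. Intervals were tested on data simulated with counting error alone, which leaves out differences between animals and between library preparations. No molecular identifiers are mentioned. The rule of size was 2-fold with at least 50 counts. Named rows were the members, rows sharing a seed or at least 15 antisense bases, the 3 nearest above and below in mean CPM, the 3 nearest in ratio, and marker lists. Members and lists were chosen with earlier results of these data known. Alternatives used TMM (edgeR 4.0.16) and size factors (DESeq2 1.42.0). Computation used Python 3.11.15, scipy 1.17.1, matplotlib 3.10.9, R 4.3.3 and RNAfold 2.7.2.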

Additional observations from a re-analysis of the deposited data

How the results depend on the processing

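The log2 ratios of miR-193a-5p, miR-365-3p, miR-365b-5p, miR-193b-3p and miR-365-2-5p stayed above 0 and within their own counting intervals under all 27 recomputations. These used TMM factors, median-of-ratios size factors, totals without the 10 most abundant rows, totals without the miR-216 and miR-217 rows, a pseudocount of 5 CPM and, for miR-365-3p and miR-365b-5p, the antisense pair added together. miR-193a-5p is not in that pair, so it has no such value. The scalings shifted every row by -0.06 to 0.06. Each of the counting intervals reaches further than that on both sides, so the scalings could not have moved a row out of its interval. Nor could a shift of that size have taken any of these log2 ratios below 0. An equal pseudocount in both libraries cannot turn a sign, and the added pair lies between its rows. Staying above 0 was thus fixed in advance. The pseudocount lowered the log2 ratio to 1.002 for miR-193a-5p, 1.26 for miR-365-3p, 0.65 for miR-365b-5p, 0.27 for miR-193b-3p and 0.52 for miR-365-2-5p, since it weighs most on rows of low count, and it took miR-365b-5p and miR-365-2-5p below 2-fold. The number of rows at least 2-fold higher in CT was 9 of 149 (6.04%) under every scaling. With no minimum beyond 1 count in each library it was 29 of 253 (11.5%). From 20 counts upward it was 15 of 184 (8.15%), and from 500 counts upward 3 of 99 (3.03%). The share thus fell as the minimum rose. The family's largest row, miR-365-3p with 384 counts over the libraries, is under the last minimum. The totals without miR-216 and miR-217, all alternatives for miR-193b-3p and miR-365-2-5p, and the added pair in the ratio to miR-193a-5p (3.84 in CC and 3.65 in CT) were chosen after seeing the data. No paired analysis was possible because each group has 1 library. Depth limits miR-193a-3p and miR-365-1-5p, which had at most 3 counts.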
